A study of Mus musculus with 282 samples.

Results

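Hspa5, Hsp90b1, Xbp1, Ddit3, Atf4, Herpud1, Sdf2l1, Calr, Pdia4 and Manf are genes that respond to stress of the endoplasmic reticulum (ER), the compartment in which secreted and membrane proteins are folded. They were chosen by name: each gene locus of the deposited expression table that carries 1 of these 10 names in the merged transcript assembly was taken, and all 10 were present among 14079 gene loci. The data are mRNA levels in the whole hypothalamus of 282 male mice from 99 inbred and recombinant inbred strains of the hybrid mouse diversity panel (HMDP). All mice were on a high fat, high sugar diet, with 1 library per mouse. The strains fall into 43 BXD strains (from C57BL/6J and DBA/2J), 18 AXB/BXA strains (C57BL/6J and A/J), 6 BXH strains (C57BL/6J and C3H/HeJ), 7 CXB strains (C57BL/6J and BALB/cJ) and 25 classical inbred strains, which include the 5 founders. No mouse had another diet, no mouse was female, and the age of the mice is not given in the sources used here, so that every comparison is between strains or between mice of a strain on the same diet. After 2 libraries of CXB-6/ByJ that differed by less than any other pair were counted as 1, and with mouse OB-627, whose labels name 2 strains, left out of comparisons between strains, 280 mice entered the tests, with 3 mice in 84 strains, 2 in 13 and 1 in 2. Mice of a strain are separate animals with mouse numbers of their own.

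When unfolded protein accumulates in the ER, 3 membrane sensors signal to the nucleus. IRE1 removes a short segment from the Xbp1 mRNA and so allows the transcription factor XBP1s to be made, ATF6 is cut to release a transcription factor, and PERK slows translation in general while that of Atf4 goes up, with Ddit3 (CHOP) among the targets of ATF4. XBP1s and ATF6 raise chaperones, folding enzymes and degradation factors, and in the hypothalamus of obese rodents this response has been linked to leptin and insulin signalling. The genes are taken below in the order of these roles: the chaperones and folding factors, the degradation factor Herpud1, and the transcription factors Xbp1, Atf4 and Ddit3.

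Windows of 250 bases before to 50 bases after the start of a gene were read from RefSeq (GRCm38.p6) for 9 of the 10 genes, and 4 of them are shown because they hold a response element written for this pathway. The ER stress response element (ERSE) was searched as CCAAT and CCACG with any 9 bases between them, ERSE-II as ATTGG and CCACG with any 1 base between them, the XBP1 motif UPRE as TGACGTGG and the ATF4-CHOP motif CARE as TGATGNAA, on both strands. Capitals mark the matches, and each sequence is printed 5′ to 3′ on the strand of its gene:
Hspa5 promoter, chr2:34771840-34772139, plus strand: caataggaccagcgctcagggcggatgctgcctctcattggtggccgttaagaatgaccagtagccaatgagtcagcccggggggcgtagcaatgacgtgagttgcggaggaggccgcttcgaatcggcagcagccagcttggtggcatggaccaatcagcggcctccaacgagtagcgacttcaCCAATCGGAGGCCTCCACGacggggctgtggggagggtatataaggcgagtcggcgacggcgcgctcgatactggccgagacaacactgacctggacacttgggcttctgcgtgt
Hsp90b1 promoter, chr10:86705395-86705694, minus strand: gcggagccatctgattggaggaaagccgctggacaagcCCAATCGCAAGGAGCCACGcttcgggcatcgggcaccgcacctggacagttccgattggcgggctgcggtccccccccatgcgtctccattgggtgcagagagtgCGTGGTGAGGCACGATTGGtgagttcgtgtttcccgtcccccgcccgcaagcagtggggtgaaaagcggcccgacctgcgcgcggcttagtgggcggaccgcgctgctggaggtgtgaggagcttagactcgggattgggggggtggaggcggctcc
Calr promoter, chr8:84846882-84847181, minus strand: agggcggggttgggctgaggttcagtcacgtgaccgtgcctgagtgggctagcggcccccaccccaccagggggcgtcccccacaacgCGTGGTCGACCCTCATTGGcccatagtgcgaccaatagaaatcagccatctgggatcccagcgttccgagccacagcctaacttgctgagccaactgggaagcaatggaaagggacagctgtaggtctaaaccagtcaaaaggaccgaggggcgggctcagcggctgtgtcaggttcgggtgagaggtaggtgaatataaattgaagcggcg
Herpud1 promoter, chr8:94386179-94386478, plus strand: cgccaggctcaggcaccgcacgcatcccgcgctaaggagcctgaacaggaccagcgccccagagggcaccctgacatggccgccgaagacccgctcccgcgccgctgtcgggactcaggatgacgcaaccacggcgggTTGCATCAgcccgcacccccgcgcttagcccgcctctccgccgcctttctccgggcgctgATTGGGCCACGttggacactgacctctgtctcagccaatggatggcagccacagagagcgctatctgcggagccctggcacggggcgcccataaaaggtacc
The Hspa5 window held an ERSE that begins 65 bases before the start, and the Hsp90b1 window held 2, 1 on the plus strand at 212 bases and 1 nearer to the start on the minus strand of the gene. The Calr window held an ERSE on its minus strand at 162 bases. Thus 3 of 9 windows held an ERSE, against 0.119% of all 32851 promoter windows. The Herpud1 window held an ERSE-II at 52 bases, a match found in 0.0365% of all windows, and a CARE on its minus strand at 112 bases, found in 3.97%. The UPRE letters were in 0 of the 9 windows and in 0.676% of all windows. The windows of Pdia4, Sdf2l1, Xbp1, Atf4 and Ddit3 held none of the 4 motifs as written, and no window was at hand for Manf. The genes were chosen as members of the pathway for which these motifs were written, so the shares are a description and enrichment was not tested. A match is a description of letters, and binding was not measured here.

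The stretch of Xbp1 that IRE1 acts on is shown because it decides what an Xbp1 level means in these data. It lies in exon 4 of 5 (GRCm38.p6, chr11:5524282-5524307, plus strand), and capitals mark the 26 bases that IRE1 removes, within chr11:5524250-5524339:
Xbp1: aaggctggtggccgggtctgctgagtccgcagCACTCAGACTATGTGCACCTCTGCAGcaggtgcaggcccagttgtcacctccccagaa
Of the 4 Xbp1 transcripts in the deposited assembly, 3 span this segment and 0 lack it. The authors' alignment dropped unannotated junctions that are not canonical. This segment begins with CA and not with the GT of a canonical intron, so the 0 follows at least in part from that filter. The Xbp1 values below pool the spliced and unspliced message, and reads across the spliced junction may be missing from them. The active form cannot be told apart from the inactive one.

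Values are FPKM, fragments per kilobase of transcript relative to the size of the library, as scaled between mice by the authors. Expression of each mouse summed over all genes had a median of 337533 FPKM and was at most 359916 FPKM in all but 2 of 281 libraries. These 2 stood apart: mouse OB-547 of BXD-12/TyJ at 792801 FPKM, 2.35 times the median, and mouse OB-422 of CXB-3/ByJ at 463433 FPKM, 1.37 times. Hypothalamic markers were expressed in every library (Hcrt between 44.6 and 718 FPKM, Nkx2-1 between 3.55 and 13.5), and mouse OB-547 had the highest summed level of 7 hypothalamic genes (9180 FPKM, median of all mice 1330) and of 5 blood genes (580, median 134). Markers of neighbouring tissue varied far more, with a summed level of 6 anterior pituitary genes between 0.589 and 16462 FPKM, of 5 choroid plexus genes between 7.25 and 2101, and of 5 thalamus genes between 17.4 and 381. Gh, Prl, Cga, Tshb, Lhb and Fshb, the defining pituitary hormones, were at 0 in 13, 20, 7, 45, 1 and 55 mice. In bulk tissue, a change in the share of a cell type and a change of RNA per cell cannot be told apart. Libraries were not strand specific, so that reads of overlapping genes cannot be separated by strand.

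Of the chaperones, Calr (calreticulin, a calcium-binding lectin chaperone of glycoproteins, mm10 chr8:84841850-84846941) had the highest level, with a median of 204 FPKM and a range of 156 to 495. Hsp90b1 (GRP94, the HSP90 of the ER, chr10:86690209-86705509) followed at a median of 156 FPKM, 125 to 254, and its locus also carries the name Gm15344. Hspa5 (BiP, the ER HSP70 and the main chaperone that holds the 3 sensors inactive, chr2:34771970-34776531) lay at a median of 124 FPKM, 97.8 to 206. These 3 stood at percentile 97.3 or above among all genes by mean level.

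Manf, a secreted factor that stays in the ER with BiP (chr9:106869198-106891984, in a locus that also carries the name Rbm15b), had a median of 60.1 FPKM and a range of 41.1 to 161. Pdia4, a protein disulphide isomerase (chr6:47796142-47813530), lay between 14.2 and 31.7 FPKM with a median of 19.2. Sdf2l1, a partner of the ER DnaJ proteins that slows aggregation of BiP clients (chr16:17130138-17132383), was the lowest of the 10 with a median of 8.98 FPKM, 3.26 to 32.6. Its coefficient of variation over mice, 32.2%, was the largest of the 10, and 29.2% without mouse OB-547.

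Herpud1, a membrane protein of the ER-associated degradation complex (chr8:94386433-94395377), lay between 26.1 and 43.3 FPKM with a median of 33.7. Its coefficient of variation, 10.5%, was the lowest of the 10 with all mice. Without mouse OB-547 that of Hsp90b1 was lower, at 10.1% against 10.4% for Herpud1. Xbp1 (chr11:5520659-5525893) had a median of 36.0 FPKM, 27.8 to 54.3. Atf4 (chr15:80255184-80257540) had a median of 54.9 FPKM, 43.0 to 105. Ddit3, the pro-apoptotic transcription factor CHOP (chr10:127290774-127296288), had a median of 20.6 FPKM, 11.8 to 90.8. None of the 10 genes fell below 1 FPKM in any mouse, the lowest value being the 3.26 FPKM of Sdf2l1.

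Mouse OB-547 gave the highest value of all 281 libraries for 7 of the 10 genes. Its Ddit3 level was 90.8 FPKM where its strain mates had 19.2 and 21.0, a ratio of 4.52, and its Manf level was 161 FPKM where they had 57.1 and 62.0, a ratio of 2.71. Pdia4 was an exception at 18.4 FPKM, 0.939 times the mates. Mouse OB-422 gave the highest Hspa5 value, 206 FPKM against 157 in both mates, and the second highest Pdia4, Calr, Sdf2l1, Manf and Ddit3. Both libraries therefore sit at the top of most of the genes described here, and several results are given with and without them.

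The first question was whether the level of each gene depends on the strain. Each of the 10 genes differed among the 99 strains in a moderated F test on log2(FPKM + 1) with Benjamini-Hochberg adjustment over all genes (limma), at a threshold of 0.05. Of all genes, 74.9% passed the same test, so that a count of 10 of 10 is not particular to these genes. The strain share, the part of the variance between mice that lies between strains (the intraclass correlation), separates them better: it was 0.650 for Hspa5 (adjusted p = 2.71e-25), 0.596 for Atf4 (9.84e-21), 0.564 for Calr (2.39e-18) and 0.543 for Pdia4 (4.18e-17). Sdf2l1, Xbp1 and Hsp90b1 followed at 0.508, 0.503 and 0.488, and Herpud1 and Manf at 0.385 and 0.364. Ddit3 was lowest at 0.236 (adjusted p = 0.000225), near the median of 0.221 over all genes, and Hspa5 stood at percentile 94.3. Mice of a strain differed by 9.12% (SD) for Hspa5 and by 19.8% for Sdf2l1, the range of the 10 genes being 7.66% to 19.8%.

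Without mice OB-547 and OB-422, all 10 genes were called again (83.6% of all genes) and their shares lay between 0.395 and 0.671, with a median over all genes of 0.269. Because mouse numbers of a strain often follow each other, strains were also split by how far apart their numbers lie. In the 60 strains whose numbers lie within 5 of each other, 10 genes were called (72.9% of all genes) with a median share of 0.570 (all genes 0.260). In the 35 strains whose numbers lie more than 20 apart, 9 were called (45.4% of all genes) with a median share of 0.455 (all genes 0.183), Ddit3 being the one not called (share 0.153, adjusted p = 0.0953). Dates of dissection or library preparation are not among the labels, so that a strain and the time at which its mice were handled cannot be fully told apart.

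**Figure D1:**
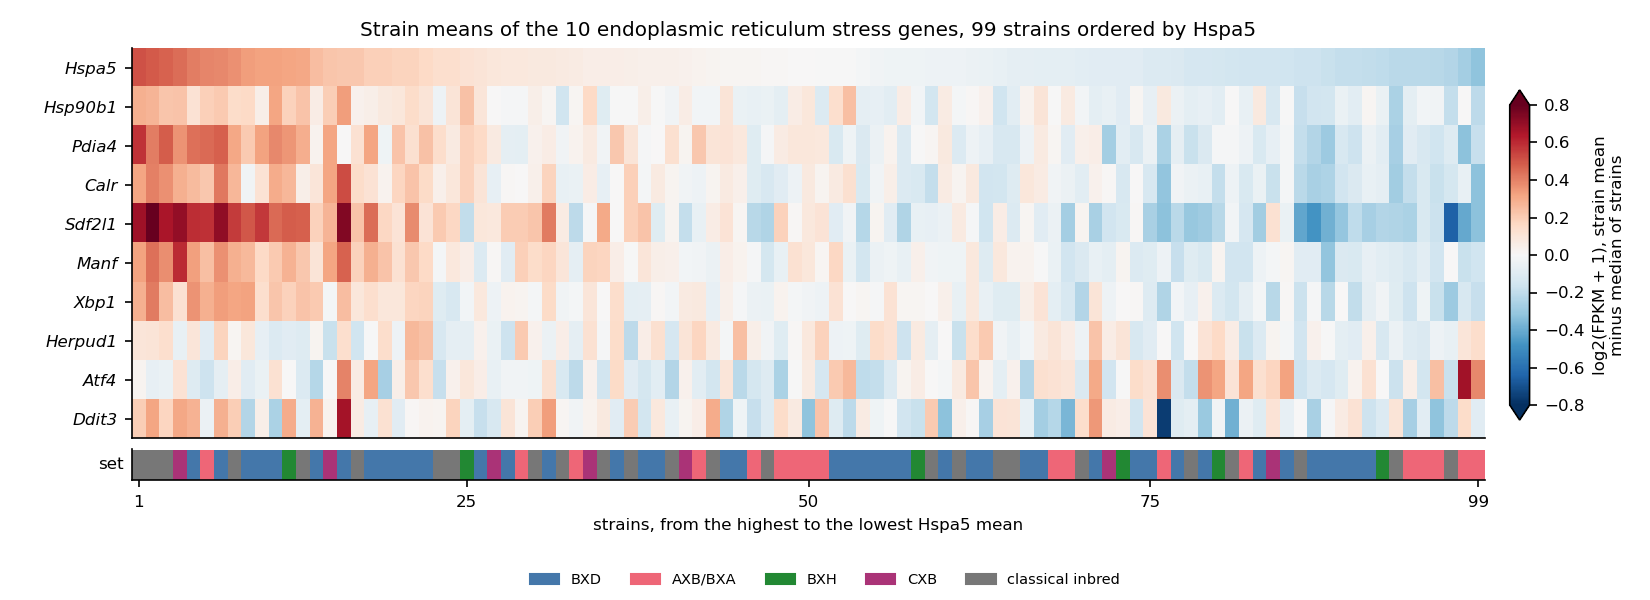
Mean log2(FPKM + 1) of each of the 10 genes in each of 99 strains (columns), minus the median of the strains, with the strains ordered by Hspa5 and the strain set in the strip below. The folding genes and Xbp1 go from red to blue together along the Hspa5 order, and Herpud1, Atf4 and, in part, Ddit3 do not.

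Hspa5 was highest in BALB/cJ, with 157, 194 and 190.9 FPKM in its 3 mice (180.7 ± 20.3, SD, n = 3), and lowest in AXB-5/PgnJ with 100.3, 98.1 and 104 FPKM (100.7 ± 2.86, n = 3), a ratio of 1.79. BUB/BnJ (177.4 ± 2.199, n = 3), C57BLKS/J (175.8 ± 19.8, n = 3) and CXB-3/ByJ (173 ± 28.2, n = 3) came next. The mice of BALB/cJ overlapped with those of 19 of the other 96 strains with at least 2 mice, so the order at the top is not resolved. Every mouse of AXB-5/PgnJ was below every mouse of BALB/cJ.

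Pdia4 was also highest in BALB/cJ, at 27.0, 30.8 and 29.3 FPKM (29.0 ± 1.89, n = 3), and lowest in BXA-12/PgnJ at 15.3 and 14.8 FPKM (15.02 ± 0.335, n = 2), a ratio of 1.93. Only 8 strains overlapped with BALB/cJ. Xbp1 was highest in BUB/BnJ at 46.7, 45.7 and 53.2 FPKM (48.5 ± 4.06, n = 3) and lowest in 129X1/SvJ at 29.8, 27.8 and 30.4 FPKM (29.3 ± 1.38, n = 3), a ratio of 1.66 with no overlap.

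For 5 genes the highest strain mean rested on mouse OB-547 or OB-422. Calr was highest in BXD-12/TyJ (315 ± 156, n = 3) and, without that mouse, in BXD-11/TyJ (272.8 ± 0.240, n = 2), which was 1.68 times the lowest strain, AXB-5/PgnJ (162 ± 4.98, n = 3). Hsp90b1 was then highest in BXD-38/TyJ (193 ± 5.38, n = 3) and lowest in CE/J (130 ± 5.43, n = 3), a ratio of 1.48. BUB/BnJ took the top place for Sdf2l1 (16.4 ± 0.184, n = 3, 2.87 times 129X1/SvJ, whose 3 mice at 8.36, 5.55 and 3.26 FPKM overlapped with 62 strains) and for Manf (81.1 ± 1.47, n = 3, 1.68 times BXD68). Ddit3 went from BXD-12/TyJ (43.7 ± 40.8, n = 3) to BXD-16/TyJ (26.6 ± 1.48, n = 3), 1.71 times the lowest strain, C57BL/6J (15.6 ± 0.934, n = 3). The 3 BUB/BnJ mice lay close together for Sdf2l1, at 16.3, 16.4 and 16.6 FPKM.

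Atf4 and Herpud1 had other strains at their ends. Atf4 was highest in BXA-12/PgnJ at 80.0 and 97.9 FPKM (89.0 ± 12.7, n = 2) and lowest in BXD75 at 48.7, 43.6 and 45.1 FPKM (45.8 ± 2.62, n = 3), a ratio of 1.94. BXA-12/PgnJ had the second lowest Hspa5 of the 99 strains, 104 ± 3.61 FPKM (n = 2), and AXB-5/PgnJ, the lowest for Hspa5, had the third highest Atf4, 72.5 ± 6.80 FPKM (n = 3). Herpud1 was highest in BXD-21/TyJ (40.3 ± 1.65, n = 3) and lowest in NZB/BlNJ (28.9 ± 0.956, n = 3), a ratio of 1.39.

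The 10 strains with the highest Hspa5 means were all in the upper part of the order (above the median strain) for Hsp90b1, Pdia4, Sdf2l1, Manf and Xbp1, and 9 of them for Calr. They shared 9 strains with the 10 highest for Xbp1, 8 each for Pdia4 and Sdf2l1, 7 each for Calr and Manf and 6 for Hsp90b1. At the low end the overlap was smaller: the 10 strains with the lowest Hspa5 shared 4 with the 10 lowest for each of Pdia4, Calr, Sdf2l1 and Xbp1, 3 each for Hsp90b1 and Manf, 2 for Ddit3, and 0 each for Herpud1 and Atf4. Of the 10 highest for Hspa5, 4 were among the 10 highest for Ddit3, 1 for Herpud1 and 0 for Atf4. These overlaps rest on means that include OB-547 and OB-422. Overlaps without both mice, or with other genes of the table, are not given here.

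Tests among the strains of a single set came from the same fit. All 10 genes differed among BXD strains (64% of all genes), 8 among classical inbred strains (47.4%), 6 among AXB/BXA strains (22.1%), 6 among CXB strains (16.4%) and 5 among BXH strains (18.4%). Hspa5, Pdia4 and Calr passed in all 5 sets, with Hspa5 shares from 0.522 (BXD) to 0.785 (BXH). These counts moved when replicate 1, 2 or 3 was left out of the strains that have it, with strains of 1 mouse kept. Among BXH strains 1 gene passed without replicate 1 and 0 passed without replicate 2. Among CXB strains 0 passed without replicate 3, and among AXB/BXA strains 2 passed without replicate 2. The calls of Hspa5, Pdia4 and Calr in BXH and CXB strains were thus lost in at least 1 of these fits. Shares of all genes called in these fits are not given here. Atf4 had a share of 0.850 among AXB/BXA strains (adjusted p = 3.75e-15) and 0.597 among BXD strains (6.68e-16) but did not pass among BXH (adjusted p = 0.0930), CXB (0.242) or classical inbred strains (0.0563). Ddit3 passed in the BXD set alone (share 0.197, adjusted p = 0.000499). Whether a share differs between sets was not tested, and with 6 or 7 strains a set of this kind gives few degrees of freedom.

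**Figure D2:**
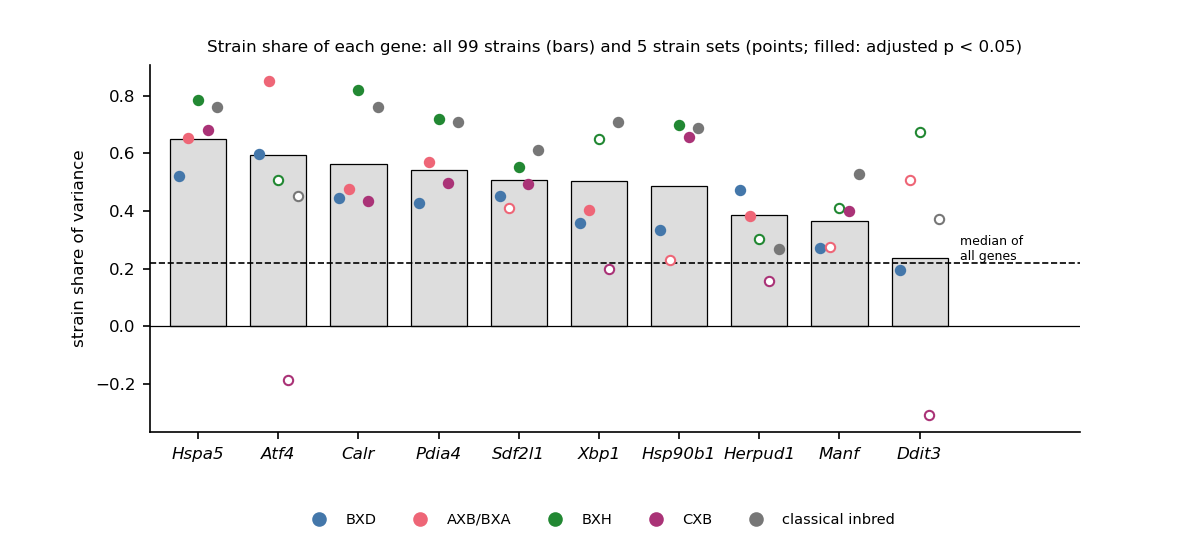
Strain share of the variance in log2(FPKM + 1) of each gene over all 99 strains (bars) and within each of the 5 strain sets (points, filled where the adjusted p of the limma F test is below 0.05). Hspa5 is filled in every set, and Atf4 is at 0.850 in AXB/BXA and below 0 in CXB.

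Many recombinant inbred strains lay outside the range of their founders. Hspa5 means of the 43 BXD strains ran from 109.97 FPKM (BXD-15/TyJ) to 168 (BXD43) around founder means of 113 (C57BL/6J) and 122 (DBA/2J), with 26 strains above both founders, 10 between and 7 below. Xbp1 was above both founders (32.6 and 34.6 FPKM) in 38 of 43 BXD strains, with a highest mean of 46.6 in BXD43. In the AXB/BXA set, Hspa5 was above both founders (113 and 112 FPKM) in 12 of 18 strains, up to 165 in AXB-2/PgnJ, which was also the highest AXB/BXA strain for Hsp90b1, Pdia4, Calr, Sdf2l1, Manf and Xbp1. The CXB set differed in that its founders lay far apart (113 and 181 FPKM) and 6 of 7 strains fell between them. These counts are of strain means, each with the error of at most 3 mice, and were not tested.

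Founders were compared with C57BL/6J, which all 4 sets share, so that the 4 comparisons use the same 3 C57BL/6J mice. In BALB/cJ, 8 of the 10 genes were higher than in C57BL/6J after adjustment over all genes (2.85% of all genes were higher) and 0 were lower (3.91%; unadjusted 0). For the 8, every BALB/cJ mouse was above every C57BL/6J mouse, as for 10.4% of all genes. Hspa5 was at 157, 194 and 190.9 FPKM in BALB/cJ and at 116, 114 and 111 in C57BL/6J, a difference of 0.66 on the log2(FPKM + 1) scale (SE 0.10, adjusted p = 1.15e-07, limma). All BALB/cJ mice were above all C57BL/6J mice.

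Pdia4 was at 27.0, 30.8 and 29.3 FPKM in BALB/cJ and at 18.4, 20.01 and 18.6 in C57BL/6J, higher by 0.585 on the log2 scale (SE 0.12, adjusted p = 0.000156, limma). Xbp1 was at 39.5, 48.1 and 45.3 FPKM against 35.8, 29.8 and 32.1, higher by 0.43 (SE 0.10, adjusted p = 0.000784, limma). For both genes the strains were separate, with the narrower gap for Xbp1. Sdf2l1 was at 11.5, 14.4 and 20.5 FPKM against 9.45, 9.37 and 7.88, higher by 0.70 (SE 0.21, adjusted p = 0.0214, limma).

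Manf (0.48), Calr (0.35), Hsp90b1 (0.28) and Ddit3 (0.58) were the other genes that were higher, with adjusted p values of 0.0174, 0.0174, 0.0270 and 0.0478. Herpud1 (difference 0.04, SE 0.09, adjusted p = 0.905) and Atf4 (-0.09, SE 0.10, adjusted p = 0.750) did not pass, and their values overlapped between the strains. The count of 8 was sensitive to the number of mice: with replicate 1, 2 or 3 left out it was 5, 2 or 3. The shares of all genes called in these fits are not given here, so a loss particular to these genes was not tested. Hspa5 and Pdia4 were called each time.

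C3H/HeJ had Hspa5 at 137, 167 and 136 FPKM, higher than C57BL/6J by 0.36 (SE 0.10, adjusted p = 0.0117, limma), and this was the only gene of the 10 called higher (3.87% of all genes), with 0 called lower (3.69%, limma, Herpud1 alone at an unadjusted p under 0.05). Without replicate 2 or 3 the call was lost (differences of 0.27 and 0.40, adjusted p = 0.308 and 0.0526). Manf and Ddit3 were also called in C3H/HeJ once mice OB-547 and OB-422 were left out (adjusted p = 0.0343 and 0.0251). In DBA/2J, 0 genes were called higher (3.29% of all genes) and 0 lower (3.56%), with Ddit3 higher and Herpud1 lower at an unadjusted p under 0.05. In A/J, 0 were called higher (3.06%) and 0 lower (4.92%), with Ddit3 higher and Hsp90b1, Herpud1 and Atf4 lower at an unadjusted p under 0.05. Atf4 in A/J, at 45.3, 48.5 and 53.8 FPKM against 60.3, 62.5 and 56.7, fell short of the threshold (-0.28, SE 0.10, adjusted p = 0.0818, limma) and passed it without OB-547 (adjusted p = 0.0475). Ddit3 was lowest in C57BL/6J of all strains with at least 2 mice, and the founder differences for Ddit3 ran from 0.39 to 0.58.

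**Figure D3:**
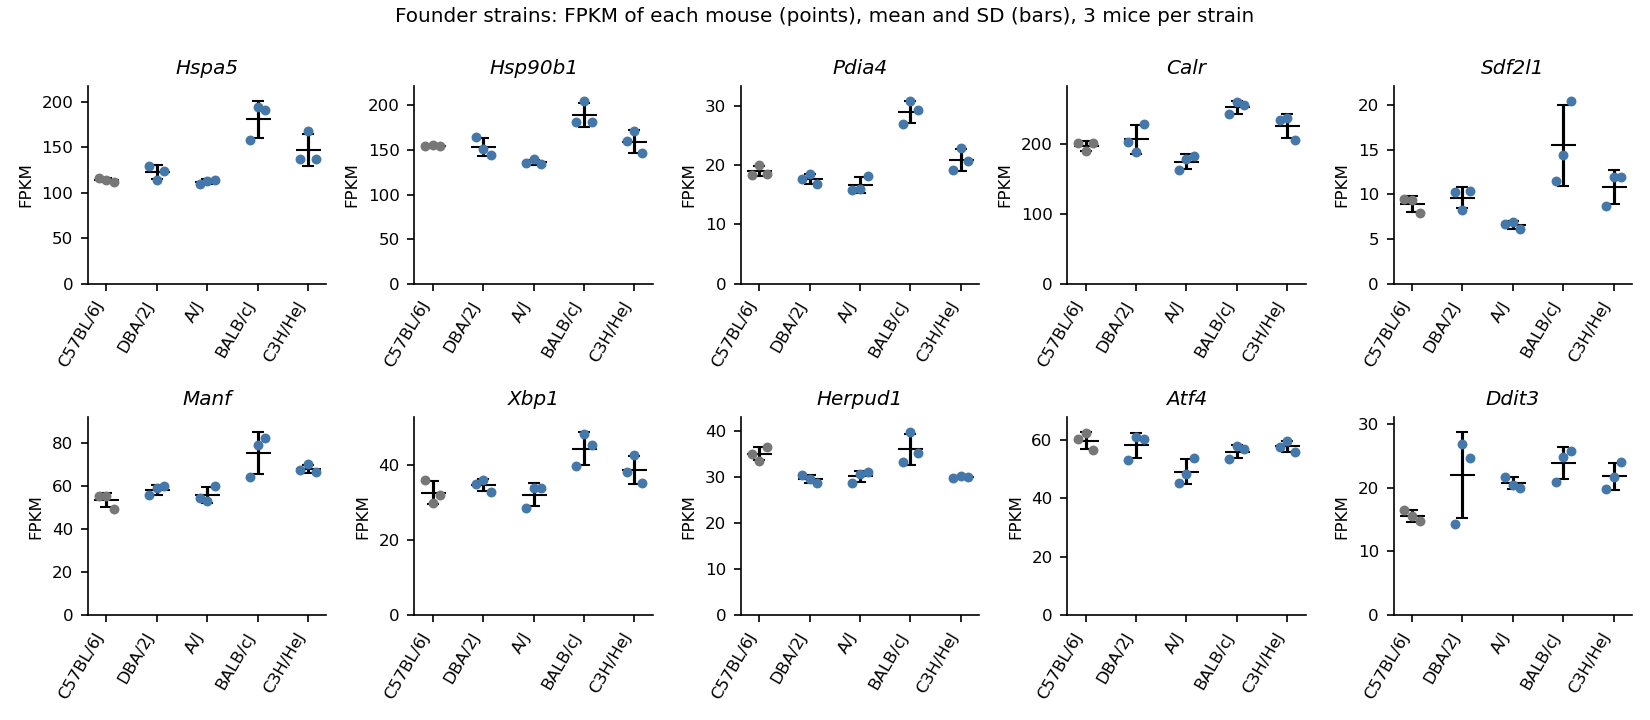
FPKM of the 10 genes in the 3 mice (points) of each of the 5 founder strains, with the mean and SD (bars) and axes that start at 0. BALB/cJ lies above C57BL/6J without overlap for 8 genes, and overlaps with it for Herpud1 and Atf4.

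The next question was whether the genes move together between mice that share a genotype. Each gene was used as a predictor for all 14078 other genes in a model with strain as a factor, over the mice of the 97 strains with at least 2 mice. A pair was called when the adjusted p was below 0.05 in both directions, with each of its genes in turn as the predictor (limma). Of the 45 pairs, 40 had a positive r and were called, and 0 were called negative (0 at an unadjusted p under 0.05). The median r was 0.45, from -0.0577 to 0.763. For single predictors the share of all genes called positive was 15.8% for Hspa5, 17.5% for Hsp90b1, 7.27% for Pdia4, 34.1% for Calr, 31.7% for Sdf2l1, 36.1% for Manf, 15.5% for Herpud1, 25.5% for Xbp1, 35.5% for Atf4 and 38.8% for Ddit3. The share called negative was 13.8%, 15.8%, 10.4%, 26.9%, 24.4%, 27.6%, 9.30%, 21.7%, 27.9% and 30.3% in the same order.

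The count of 40 depended on mice OB-547 and OB-422. Without them 26 pairs were positive and 1 was negative, and the shares of all genes called positive were 9.39%, 16.8%, 7.89%, 3.62%, 9.60%, 7.08%, 0.234%, 7.88%, 18.9% and 20.2% in that order. For the negative pair, Hsp90b1 and Atf4, 20% and 16.8% of all genes were then called negative with each as the predictor. The 21 pairs among the 6 folding genes (Hspa5, Hsp90b1, Pdia4, Calr, Sdf2l1, Manf) and Xbp1 were called with all mice, with r from 0.394 to 0.763, and without both mice, with r from 0.303 to 0.752. The pairs of Herpud1 went from 9 called to 1, those of Ddit3 from 7 to 3 and those of Atf4 from 6 positive to 2 positive and 1 negative.

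Hspa5 and Hsp90b1 formed the closest pair, r (Pearson) being 0.763 and rho (Spearman) 0.727 over the deviations of mice from their strain means (adjusted p = 1.8e-30, limma; permutation within strains p = 1e-05, the smallest that 100000 resamples can give). Leaving out the 2 mice farthest in Hspa5 gave r = 0.74. It was positive in each set alone, at 0.82 (BXD), 0.72 (AXB/BXA), 0.53 (BXH), 0.75 (CXB) and 0.69 (classical inbred). Values of sets alone, here and below, include OB-547 (in BXD) and OB-422 (in CXB). Sdf2l1 and Manf followed with r = 0.71 and rho = 0.65 (adjusted p = 1.38e-24), and r = 0.63 without OB-547 and OB-422.

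Xbp1 covaried with each folding gene, most with Hspa5 (r = 0.67, rho = 0.64, adjusted p = 3.68e-20; 0.66 without the 2 farthest mice, 0.63 without OB-547 and OB-422) and Pdia4 (r = 0.63, rho = 0.61), and least with Sdf2l1 (r = 0.49, rho = 0.46). In the sets alone, the r of Hspa5 and Xbp1 was 0.66, 0.76, 0.49, 0.78 and 0.63 in BXD, AXB/BXA, BXH, CXB and classical inbred strains. Over the 21 pairs of folding genes and Xbp1, r was positive in all 21 in each set but BXH, where it was positive in 16 over 16 mice.

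Atf4 showed a different set of partners. With Hspa5 its r was 0.0273 (rho -0.0778, adjusted p = 0.818) and with Hsp90b1 -0.0577 (rho -0.169, adjusted p = 0.590), and the latter became -0.27 without OB-547 and OB-422 (adjusted p = 0.00188, limma). Its highest r was with Ddit3, 0.55 (rho 0.32, adjusted p = 1.48e-14), which remained positive without both mice (0.32, adjusted p = 0.000134, limma). With both mice kept, the r of this pair was 0.51, 0.36, 0.14, 0.84 and 0.45 in BXD, AXB/BXA, BXH, CXB and classical inbred strains. OB-547 is a BXD mouse and OB-422 a CXB mouse. Manf was the other gene called with Atf4 without both mice (r = 0.24, adjusted p = 0.0141). Ddit3 was then also called with Sdf2l1 (r = 0.29, adjusted p = 0.00196) and Manf (r = 0.28, adjusted p = 0.00396), and Herpud1 with Manf alone (r = 0.29, adjusted p = 0.0444).

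Scaling bore on Ddit3 as well. After quantile normalization of the log2 values, 23 pairs were positive and 4 negative, and the shares of all genes called are not given here. Ddit3 then had an r of -0.40 with Hsp90b1, -0.20 with Hspa5 and -0.20 with Calr. Before this scaling, r with Ddit3 was positive for Hspa5 (0.247) and Calr (0.479), or 0.0942 and 0.126 without OB-547 and OB-422. For these 2 pairs the direction turned with the scaling. Hsp90b1 and Ddit3 had not been called before it (r = 0.118, adjusted p = 0.217, limma). Their rho was -0.0836, and their r was -0.134 without both mice, so this sign turned without rescaling too. The remaining negative pair was Hsp90b1 and Atf4 (r = -0.224, adjusted p = 0.0138, limma). Among the folding genes and Xbp1, Hsp90b1 and Sdf2l1 turned (r = -0.00322, adjusted p = 0.976), and Calr and Sdf2l1 missed the threshold (r = 0.156, adjusted p = 0.0816).

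**Figure D4:**
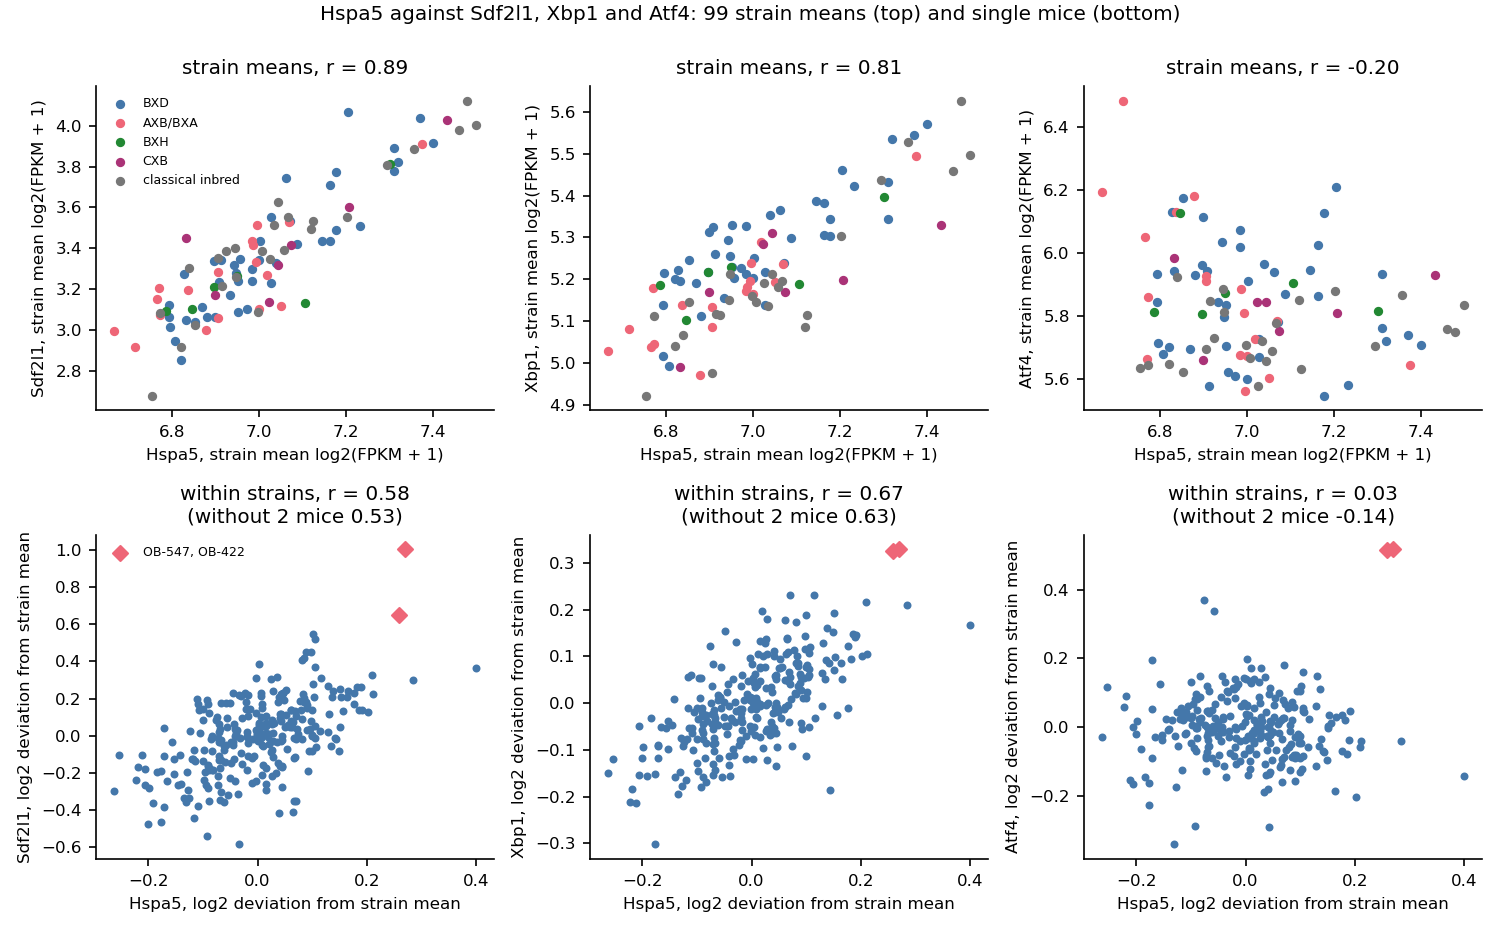
Hspa5 (x axes) against Sdf2l1, Xbp1 and Atf4 (y axes) in log2(FPKM + 1), for 99 strain means coloured by strain set (top) and for single mice of 97 strains as deviations from their strain mean (bottom), with mice OB-547 and OB-422 as diamonds. Sdf2l1 and Xbp1 rise with Hspa5 in both rows and Atf4 does not (r = -0.195 over strain means and 0.0273 within strains).

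The last question was whether strains with a high mean for 1 gene have a high mean for the others. Over 99 strain means of log2(FPKM + 1), 27 of 45 pairs were called positive and 0 negative (0 at an unadjusted p under 0.05, limma). For Hspa5 as the predictor 4.37% of all genes were called positive, and the other genes as predictors gave 9.36% (Hsp90b1), 4.15% (Pdia4), 13.2% (Calr), 7.32% (Sdf2l1), 10.3% (Manf), 0.00710% (Herpud1), 7.74% (Xbp1), 10.1% (Atf4) and 16.7% (Ddit3). The shares called negative were 2.27%, 8.01%, 3.89%, 12%, 5.60%, 6.90%, 0.0142%, 5.69%, 10.1% and 11.8%, in the order Hspa5, Hsp90b1, Pdia4, Calr, Sdf2l1, Manf, Herpud1, Xbp1, Atf4 and Ddit3. Recombinant inbred strains of a set are related, so that p values over strain means are too small by an amount that is not known. Values within the sets are therefore given beside the pooled ones.

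The 21 pairs among the folding genes and Xbp1 were all called, with r from 0.67 to 0.89, and r was positive for all 21 in each of the 5 sets. Hspa5 and Sdf2l1 came first with r = 0.89 and rho = 0.85 (adjusted p = 7.54e-31, permutation p = 1e-05), 0.88 without the 2 strains farthest in Hspa5, and 0.90, 0.82, 0.84, 0.82 and 0.93 in BXD, AXB/BXA, BXH, CXB and classical inbred strains. Hspa5 and Pdia4 had r = 0.88 and rho = 0.82 (adjusted p = 2.21e-28, permutation p = 1e-05), 0.86 without the 2 farthest strains, and 0.83, 0.84, 0.97, 0.89 and 0.94 in the sets in the same order. Xbp1 had its highest r with Hspa5 (0.81, rho 0.71) and its lowest with Hsp90b1 (0.68, rho 0.61). The BXH and CXB values rest on 6 and 7 strains.

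Ddit3 was called with 6 of these 7 genes, with r from 0.30 (Pdia4) to 0.47 (Sdf2l1), and not with Hsp90b1 (r = 0.10, adjusted p = 0.506). Herpud1 was called with 0 of the other 9 genes (limma; Xbp1 alone had an unadjusted p under 0.05, with r = 0.25). Atf4 was also called with 0 of 9 (0 at an unadjusted p under 0.05), with r from -0.195 (Hspa5) to 0.196 (Hsp90b1). Atf4 and Ddit3 had r = -0.145 over strain means (rho -0.20, adjusted p = 0.316) and 0.55 within strains. That difference was not tested.

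**Figure D5:**
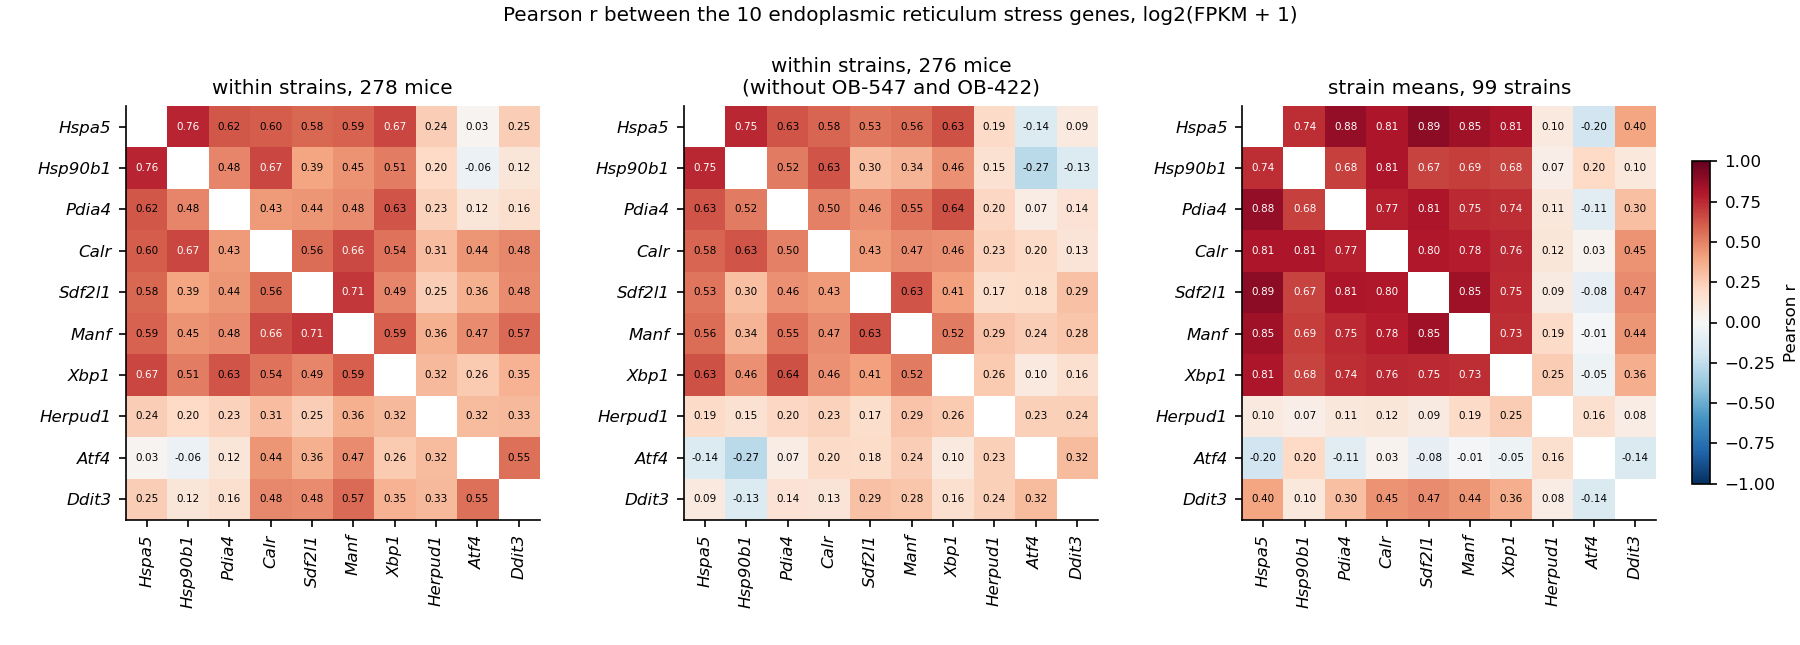
Pearson r of log2(FPKM + 1) for every pair of the 10 genes within 97 strains (left), within strains without mice OB-547 and OB-422 (middle) and over 99 strain means (right), on a colour scale from -1 to 1. The upper left block of 7 genes stays red in all 3 panels, from 0.303 to 0.891, while the values of Herpud1, Atf4 and Ddit3 fall between the first panel and the second.

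Among all genes (loci with 1 name and a mean of at least 1 FPKM), those most like Hspa5 within strains were Pdia6 (r = 0.73), Pdia3 (0.68) and Xbp1 (0.67), the first 2 being disulphide isomerases of the ER. Hsp90b1 was most like Hspa5 (0.763), Pdia3 (0.67) and Calr (0.67), Pdia4 most like Xbp1 (0.63), Hspa5 (0.62) and Pdia3 (0.57), and Xbp1 most like Hspa5 (0.67), Pdia4 (0.63) and Pdia6 (0.61). For Sdf2l1 the nearest were Pdia6 (0.69), the disulphide isomerase P4hb (0.63) and Tpt1 (0.58), which is not an ER chaperone and whose r was 0.453 without OB-547 and OB-422. For Manf they were Pdia6 (0.72), Sdf2l1 (0.71) and Atpif1 (0.67), an inhibitor of the mitochondrial ATP synthase, whose r was 0.389 without both mice. For Calr they were Dnajb11 (0.69), a BiP cofactor, Pdia6 (0.67) and Cfdp1 (0.66), of which Cfdp1 dropped to 0.37 without OB-547 and OB-422. Herpud1 was most like Tsc22d3 (0.42), Pdhb (0.38) and Sdc4 (0.37).

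The nearest genes of Atf4 and Ddit3 were not ER genes. For Atf4 they were Cox6a1 (0.71) and Atp5b (0.70), of the mitochondrial respiratory chain, and Fth1 (0.70), ferritin heavy chain. For Ddit3 they were Ndufb7 (0.78), Ndufs7 (0.78), subunits of complex I, and Rps14 (0.77), a ribosomal protein. Without OB-547 and OB-422 these values fell to between 0.54 and 0.61.

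Within strains, Hspa5 had a positive call for 15.8% of all genes and a negative one for 13.8% (9.39% positive without OB-547 and OB-422). The negative share without both mice is not given, for this list or for those below. Of 25 other ER chaperones and folding enzymes, 17 covaried with Hspa5 with a positive r and 0 with a negative one (15 and 0 without both mice). The largest r were those of Pdia6 (0.73), Pdia3 (0.68), Creld2 (0.55), a secreted ER stress protein, and Dnajc3 (0.49), the BiP cofactor p58IPK. The median r with Hspa5 was 0.25, against 0.02 over all genes. In the strain test 20 of the 25 passed, beside 74.9% of all genes, with a median share of 0.20, below that of all genes (0.22).

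Of 26 genes of translocation and secretory transport, 17 covaried with Hspa5 (14 positive and 1 negative without both mice), beside 15.8% of all genes (9.39% without both mice), led by Kdelr2 (0.49), a receptor that returns ER proteins, Ssr2 (0.42), Spcs2 (0.42) and Tmed2 (0.39). Of 19 measured genes of ER-associated degradation, 6 did (9 without both mice), beside the same shares of all genes, led by Derl1 (0.48), Selk (0.44), Vimp (0.35) and Derl2 (0.27), all parts of the retrotranslocation machinery. The strain test was passed by 22 of 26 and 17 of 19, beside 74.9% of all genes.

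Of the 6 sensors and their proteases, 0 covaried with Hspa5 (limma, 0 at an unadjusted p under 0.05), beside 15.8% of all genes positive and 13.8% negative. The largest r in size were 0.138 for Ern1 (IRE1), 0.108 for Atf6, -0.104 for Eif2ak3 (PERK) and -0.0881 for Mbtps2. Without OB-547 and OB-422, Ern1 was called at r = 0.32 (adjusted p = 0.000326, limma), where 9.39% of all genes were called positive with Hspa5. Of 27 measured targets of the PERK, ATF4 and CHOP branch, 1 covaried with Hspa5, beside the same 15.8% and 13.8% of all genes. It was the stress protein Nupr1 (r = 0.21, adjusted p = 0.0168, limma), and Slc7a5, Chac1 and Vldlr had r of -0.18, -0.17 and -0.158 that did not pass. Without both mice Nupr1 did not pass (r = 0.134, adjusted p = 0.202, limma). Ero1l was then positive (0.201) and Chac1 (-0.199), Aars (-0.288) and Bbc3 (-0.198) were negative, named after their values were seen. The share of all genes negative with Hspa5 in that fit is not given, so these negative calls cannot be read as particular to this branch. With Atf4, 20 of these 27 were called positive and 3 negative, beside 35.5% and 27.9% of all genes, and 15 and 3 without both mice, beside 18.9% and 16.8%. Asns (asparagine synthetase, r = 0.52) and Slc3a2 (an amino acid transporter subunit, r = 0.60) were among the positive ones, and Slc7a11 (r = -0.55), Vldlr (-0.52) and Ero1l (-0.56) were the negative ones, all 5 named after their values were seen. Ero1l, an oxidase of the ER, is on the folding list as well.

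Marker genes of other tissues and programmes moved with the 10 genes to different degrees. For the mean level of 8 cytosolic heat shock genes (all 8 measured, summed level 731 to 1297 FPKM over mice), r within strains ran from 0.31 (Herpud1) to 0.62 (Calr), or from 0.141 to 0.558 without OB-547 and OB-422, and over strain means it was 0.814 with Hspa5, 0.803 with Sdf2l1, 0.151 with Herpud1 and 0.00754 with Atf4. For the anterior pituitary list r within strains lay between 0.0268 and 0.385, for choroid plexus between 0.00382 and 0.227, for thalamus between -0.195 and 0.416, and for blood between 0.0841 and 0.324. Without both mice these ranges were 0.0324 to 0.39, 0.00353 to 0.231, -0.238 to 0.427 and -0.0209 to 0.2 in the same order. With the pituitary, choroid plexus, thalamus and blood lists as covariates, 10 genes differed among strains, beside 77.1% of all genes. The hypothalamus list was not a covariate, and its r within strains was 0.205 to 0.524 (-0.01 to 0.388 without both mice). Nor was the astrocyte list, at -0.444 to -0.167 (-0.254 to -0.0236 without both mice). Ranges of the remaining lists are given with the processing. The part of the other lists in these results was not tested.

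Transcript values came from the same table, with p adjusted over its 51024 transcripts. Of 42 transcripts of the 10 genes, 26 differed among the 99 strains (45.9% of all transcripts), with a median strain share of 0.15 against 0.11 over all. Unannotated isoforms made up 17 of the 42, 11 of them of Herpud1, whose 14 transcripts each held at most 13.8% of the gene level. For Hsp90b1, Sdf2l1, Ddit3 and Xbp1 a single annotated transcript held 95.0%, 98.7%, 91.3% and 83.9% of the gene level.

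The highest share belonged to an unannotated isoform of Hspa5, at 0.90 (adjusted p = 1.15e-69), with a mean of 46.5 FPKM or 35.8% of the gene level. Its 8 introns are those of an annotated transcript, except that 6 of the 16 intron borders differ by 1 base. In all 17 mice of BXD-9/TyJ, BXD62, BXD70, BXD75, BXD85 and BXHA1 it was at most 1.21 FPKM, and it was listed at 0 in 1 mouse of BXD87, whose mates had 30.7 and 50.8 FPKM. In the other 262 mice its lowest, median and highest values were 10.1, 49.5 and 84.1 FPKM. The 6 strains were picked as those with every mouse below 5 FPKM for this isoform, so their separation follows in part from that cut. The lowest value above the cut was 10.1 FPKM, and BXD87 alone had mice on both sides.

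The annotated partner was at 63.8 to 116 FPKM (median 90.4) in those 17 mice. In the other 262 it was at 0.0413 to 146 FPKM (median 24.9), a range that covers that of the 17. For the gene as a whole the 17 mice lay between 99.3 and 162 FPKM (median 127) and the 262 between 97.8 and 206 (median 124), so that the groups overlap throughout. The 2 transcripts differ in so few bases that reads of 1 can be assigned to the other, and both levels are uncertain. Results above rest on the gene level of Hspa5, to which the other annotated transcript added a mean of 47.8 FPKM (36.9%).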

How the data were processed

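RNA of the whole hypothalamus was extracted (Qiagen miRNAeasy), made into unstranded TruSeq libraries and sequenced as paired ends. The authors used STAR 2.3.1 for alignment (mm10) and Cufflinks 2.2.0 to build a transcript set per strain, combined these sets with GENCODE models, and deposited FPKM scaled by Cuffnorm 2.2.1, keeping features above 0 in at least 100 mice and above 1 FPKM in at least 50. The deposited FPKM carry no read counts, so that no counting interval can be given and the depth behind a value is unknown. The 10 genes and all lists were chosen with earlier results of these data known. Libraries of mice 273 and 274 (CXB-6/ByJ) were in a ratio of 0.9951113 to 0.9951295 over 13991 genes and were averaged. Values were tested as log2(FPKM + 1) with limma 3.58.1 in R 4.3.3 across all 14079 genes, by a moderated F test over strains, contrasts of founders, and models with strain and 1 gene as predictor, with Benjamini-Hochberg adjustment and a threshold of 0.05. Fold changes on this scale understate those of low genes. Permutation tests were two-sided, with 100000 resamples (Python 3.11.15, numpy 2.4.6). Scripts were checked on simulated data. Genes named besides the 10 are, for each of the 10, the 3 with the highest r within strains and, for each list, up to 4 with the largest absolute r with Hspa5, besides tissue markers and the genes said to be named after their values were seen. Hypothalamus, oligodendrocyte, astrocyte, microglia, endothelium, immediate early, glucocorticoid and clock marker lists were also measured: their r with the 10 genes within strains ran from 0.205 to 0.524, -0.329 to 0.435, -0.444 to -0.167, -0.117 to 0.0716, -0.192 to -0.06, -0.0798 to 0.403, 0.0361 to 0.398 and -0.347 to 0.166, and without mice OB-547 and OB-422 from -0.01 to 0.388, -0.355 to 0.464, -0.254 to -0.0236, -0.151 to 0.0401, -0.238 to -0.0818, -0.14 to 0.347, 0.0326 to 0.408 and -0.296 to 0.293.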

Additional observations from a re-analysis of the deposited data

How the results depend on the processing

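FPKM carry no depth, most strains have 3 mice, strains are related, and dates are not among the labels. The alternatives without mice OB-547 and OB-422 and by mouse number were chosen after seeing the data. No paired analysis was possible because the labels give mice no replicate number that strains share. Replicate 1, 2 or 3 was left out in turn of the strains that have it, with strains of 1 mouse kept. The genes that differed then numbered 9 to 10 among 99 strains. By set they numbered 7 to 10 (BXD), 2 to 4 (AXB/BXA), 0 to 5 (BXH), 0 to 6 (CXB) and 6 to 7 (classical inbred). Those higher numbered 2 to 5 in BALB/cJ and 0 to 1 in C3H/HeJ, and those lower in A/J 0 to 1. Positive pairs numbered 28 to 30 within strains and 25 to 27 over strain means, and transcripts that differed 16 to 17. Shares of all genes called in these fits are not given here. For the lists, counts of strain calls and of genes positive with Hspa5 were then 1 to 3 and 0 to 0 (sensors), 9 to 18 and 9 to 13 (folding), 9 to 13 and 4 to 5 (degradation), 15 to 20 and 9 to 14 (transport) and 17 to 22 and 0 to 0 (PERK, ATF4 and CHOP).

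Without mice OB-547 and OB-422, 1 gene was higher in DBA/2J, 3 in C3H/HeJ and 1 lower in A/J, and 26 pairs were positive and 1 negative within strains. Atf4 was the 1 gene lower in A/J, also after quantile normalization, with mapped reads as covariates and without OB-547. Quantile normalization gave 23 positive and 4 negative pairs within strains and 1 negative over strain means, and without OB-547 1 was negative within strains. Within strains, positive pairs numbered 1 in AXB/BXA, 0 in BXH, 20 in CXB and 10 in classical inbred strains alone, at unadjusted p 21 in AXB/BXA and 1 in BXH. Over strain means they numbered 3 in AXB/BXA, 0 in BXH and 0 in CXB alone (limma, 19, 13 and 14 unadjusted). Sensors positive with Hspa5 numbered 3 after quantile normalization, 1 without OB-547 and 1 without both mice, and PERK, ATF4 and CHOP targets 4 after quantile normalization, 0 without OB-547 and 3 with marker lists as covariates. Sets alone kept all their mice, with OB-547 in BXD and OB-422 in CXB. Shares of all genes under these alternatives are not given here, apart from those stated above. The cause of these changes was not tested.

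A change of sign was counted as a reversal only with an adjusted p below 0.05 in the main fit or the alternative (limma). Other changes of sign are not listed. Of 945 values of r within strains, 19 reversed. After quantile normalization these were Hspa5 and Ddit3 (-0.198), Hsp90b1 and Sdf2l1 (-0.00322), Hsp90b1 and Ddit3 (-0.402) and Calr and Ddit3 (-0.199). In AXB/BXA alone they were Calr and Herpud1 (-0.0251) and Herpud1 and Atf4 (-0.107). In BXH alone they were Hspa5 with Manf (-0.0166), Herpud1 (-0.392) and Ddit3 (-0.554), Hsp90b1 with Sdf2l1 (-0.521), Manf (-0.457) and Herpud1 (-0.315), Pdia4 with Sdf2l1 (-0.221), Manf (-0.101) and Herpud1 (-0.429), Calr with Ddit3 (-0.302), Manf with Ddit3 (-0.342), and Xbp1 with Atf4 (-0.0718) and Ddit3 (-0.6). Of the others, 23.4% of the 945 kept their direction but fell below the threshold, and 7 passed it only under the alternative. Of 675 values over strain means, without OB-547 and OB-422 27 pairs being positive and 0 negative, 105 fell below it and 1 passed, of 360 founder differences 18 and 8, and of 140 strain shares 2 and 0.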
